A study of Mus musculus with 8 samples.

Results

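Neurotrophins, their receptors and the neuronal pentraxins are secreted and surface proteins through which neurons adjust their synapses. The 10 genes of this group were chosen by symbol: the ligands Bdnf and Ntf3, the receptor tyrosine kinases Ntrk2 and Ntrk3, the sorting receptors Sorcs1, Sorcs2 and Sorcs3, and the pentraxin genes Nptx1, Nptx2 and Nptxr. Of these, 8 had a row among 10601 genes with a symbol in the deposited tables, and all 8 passed the filter on low values that left 10588 genes for testing. Ntf3 and Nptxr had no row under their symbol.

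Poly(A)+ RNA was sequenced from the right cortex of 8 C57BL/6 mice. The 4 bigenic mice carried Camk2a-tTa and deltaNLS-hTDP-43, a human TDP-43 with a defective nuclear localization signal that is switched on by the tTA protein when doxycycline is absent. The 4 control mice were nontransgenic. Both groups came off the doxycycline diet at 28 days of age and were examined 10 days later. The Camk2a promoter drives tTA mainly in excitatory neurons of the forebrain. Mice with 1 transgene alone were not among the 8, and effects of tTA or of the insertion sites cannot be told apart here from those of deltaNLS-hTDP-43. The columns of the table name the group but not the numbered mouse of the labels, and mice are given in column order within each group. The rows hold normalized counts as whole numbers, and how they were scaled is not given in the sources used here.

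BDNF binds TrkB, the product of Ntrk2, and NT-3, the product of Ntf3, binds mainly TrkC, the product of Ntrk3. Both receptors signal through the MAP kinase, phosphoinositide 3-kinase/Akt and phospholipase C pathways. In the cortex BDNF is made largely by excitatory neurons, and its transcription follows neuronal activity through CREB and other calcium-responsive factors. The SorCS proteins are Vps10p-domain receptors that sort cargo, including Trk receptors, proneurotrophins and AMPA receptors, between the cell surface and internal membranes. NP1 (Nptx1) and NARP (Nptx2) are secreted pentraxins that gather AMPA receptors at synapses, and Nptxr encodes the membrane-bound receptor that assembles with them. Nptx2 and Bdnf are both classed as activity-regulated genes.

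A promoter of Bdnf is shown because several genes that read neuronal activity into this gene are described among the results. RefSeq promoter windows (GRCm38.p6, from upstream of a start site to just past it) were given for Bdnf (7 windows), Ntf3 (2), Ntrk2, Sorcs1 and Sorcs3 (1 each). The entries for Ntrk3, Sorcs2, Nptx1, Nptx2 and Nptxr were missing. Both strands were searched for the cAMP response element TGACGTCA and for its half-site TGACG, which is contained in the full element. The full element was in 1.79% and the half-site in 20.8% of all 32851 promoter windows. Of the 12 windows of these genes, 1 held a half-site and 0 held a full element. It is the following Bdnf window at chr2:109692186-109692485 on the plus strand, in which the capitals mark the half-site as read from the opposite strand, starting at position -35 from the start site.
Bdnf promoter: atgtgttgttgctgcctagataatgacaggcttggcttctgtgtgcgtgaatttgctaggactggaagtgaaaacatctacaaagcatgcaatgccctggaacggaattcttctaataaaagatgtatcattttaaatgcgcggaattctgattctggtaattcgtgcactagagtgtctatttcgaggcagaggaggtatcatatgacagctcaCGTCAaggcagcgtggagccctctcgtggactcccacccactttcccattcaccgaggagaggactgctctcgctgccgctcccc
The table has 1 row for Bdnf and does not separate its start sites, so it gives no level for this promoter.

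Column totals were between 20.1 and 22.0 M normalized counts for bigenic and between 20.4 and 21.2 M for nontransgenic mice. From the steps between the low values, 1 read was estimated to be worth between 0.648 and 2.07 normalized counts. The estimate takes every value of a mouse as reads times 1 factor, rounded, and gives between 10.6 and 31.9 M reads on genes. Every one of the 8 genes then rests on at least 404 reads in each mouse, for which counting error alone gives a coefficient of variation of at most 4.97%. The largest rise of all genes tested was that of a transcript listed as uc999vvf.1 without a gene symbol. It had 29375 to 41550 normalized counts across the bigenic mice, against 5 to 80 across the nontransgenic mice. Because it was picked for its rise between the labelled groups, it is no independent check of the labels. Mouse Tardbp (uc008vvg.1) was lower in the bigenic mice, at 5180 ± 249 against 6538 ± 420 normalized counts (SD, n = 4), and its log2(fold change) was -0.33 (limma, adjusted p = 0.00645). The neuron markers (6 of 6), excitatory neuron markers (6 of 6) and inhibitory neuron markers (6 of 6) all had values. So did 6 of 6 striatal, 5 of 8 choroid plexus, 2 of 4 thalamic and 1 of 4 hippocampal granule cell markers. Which markers had values therefore does not identify the dissected tissue.

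Nptx1 and Nptx2 fell in the bigenic mice, and the remaining 6 genes with a row did not pass the test. Across all 10588 genes, 35.9% had an adjusted p below 0.05 in limma's test of bigenic against nontransgenic mice, and of all genes 20.5% were higher and 15.4% lower. Of the 8 genes 2 passed (25.0%), both lower, and the values of the groups did not overlap for 3 of 8, with 1 higher and 2 lower. Of all genes 39.0% did not overlap, 22.3% as higher and 16.7% as lower. The median log2(fold change) was -0.12 over the 8 genes and 0.03 over all genes tested. In bulk tissue, fewer cells of a type and less RNA per cell cannot be told apart.

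**Figure D1:**
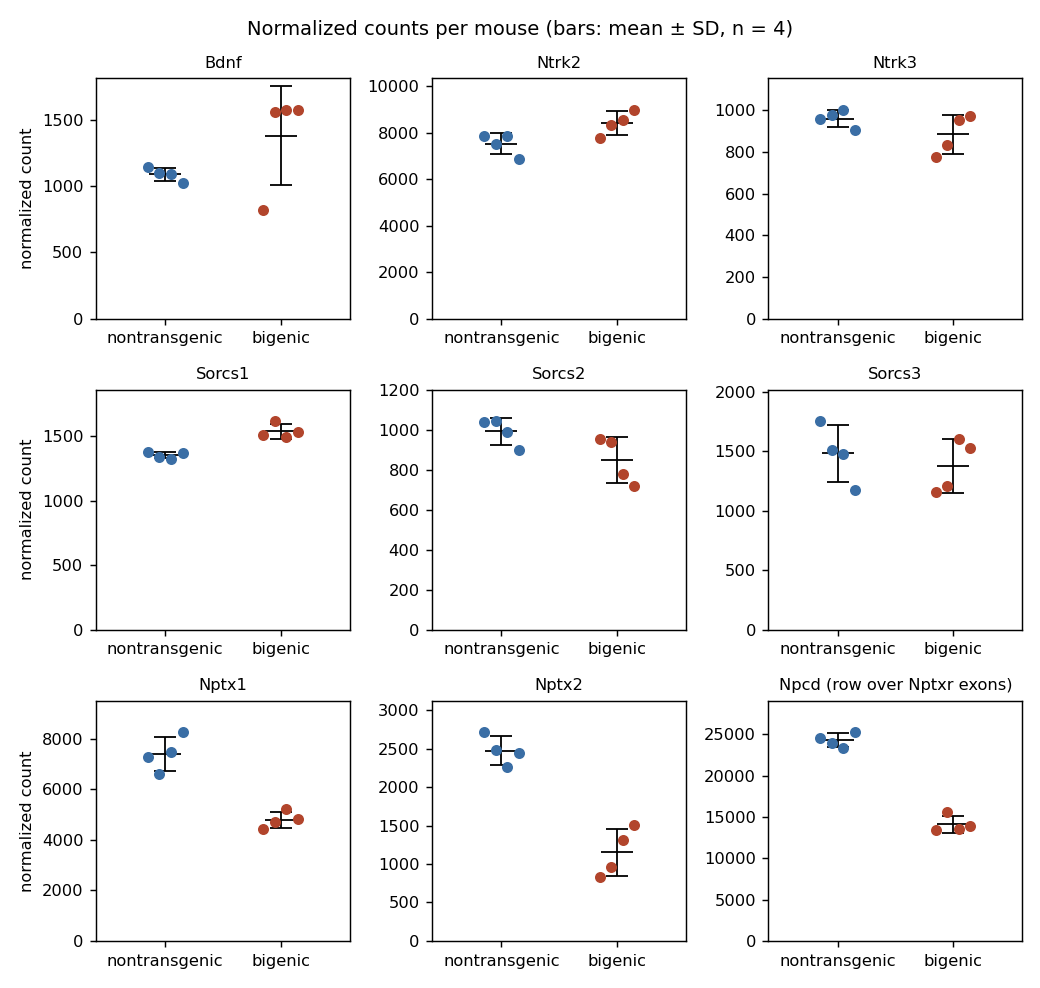
Normalized counts (linear axis from 0) of the 8 genes with a row and of Npcd, whose exons cover most of Nptxr, in nontransgenic (blue) and bigenic (red) mice, 1 point per mouse in column order, with the mean and SD of 4 mice as bars. The points of the groups are apart for Sorcs1, Nptx1, Nptx2 and Npcd, and 1 bigenic mouse lies below all others for Bdnf.

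Of the ligands, only Bdnf had a row. Bdnf (uc008lme.1, mm9 chromosome 2, 109514857 to 109567204, plus strand) had 822, 1557, 1577 and 1572 normalized counts in the bigenic mice, against 1144, 1102, 1090 and 1023 in the nontransgenic mice. The first bigenic mouse lay below every nontransgenic mouse, the other three lay above every one, and the groups therefore overlapped. The means were 1382 ± 373 and 1090 ± 50.2 (SD, n = 4), and the log2(fold change) was 0.29 (SE 0.19, 95% interval -0.14 to 0.72), which did not pass limma's test (adjusted p = 0.259). The coefficient of variation of Bdnf was 27.0% among the bigenic mice and 4.60% among the nontransgenic mice.

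The result for Bdnf depended on 1 library. Without the first bigenic mouse, Bdnf was at 1557 to 1577 against 1023 to 1144 normalized counts, and the log2(fold change) was 0.53 (SE 0.07, 95% interval 0.36 to 0.69) with an adjusted p of 0.00144 in limma. That mouse also had the highest sum of 6 striatal marker genes, at 6637 normalized counts, against 2346, 2252 and 2005 in the other bigenic mice, while the nontransgenic mice had 3663, 4881, 3344 and 3602. Among them Drd2, a dopamine receptor of striatal neurons, had 246 normalized counts in the first bigenic mouse, 6 to 48 in the other bigenic mice and 26 to 73 in nontransgenic mice. Of the 6 striatal markers 0 passed the test between the groups and 0 were at 0 in any mouse. The part of striatal tissue in the low Bdnf value was not tested.

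Arc and Egr1, activity-induced genes chosen here after their values were seen, were also at their lowest among bigenic mice in the first one. Arc had 649, 3754, 994 and 1834 normalized counts across the bigenic mice, against 621, 5241, 2115 and 7175 across the nontransgenic mice. Egr1 had 1376, 4825, 2419 and 2741 against 3255, 5123, 4405 and 7513. The order of the mice differed from that of Bdnf: the nontransgenic mouse with the lowest Arc had the highest Bdnf of its group.

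**Figure D2:**
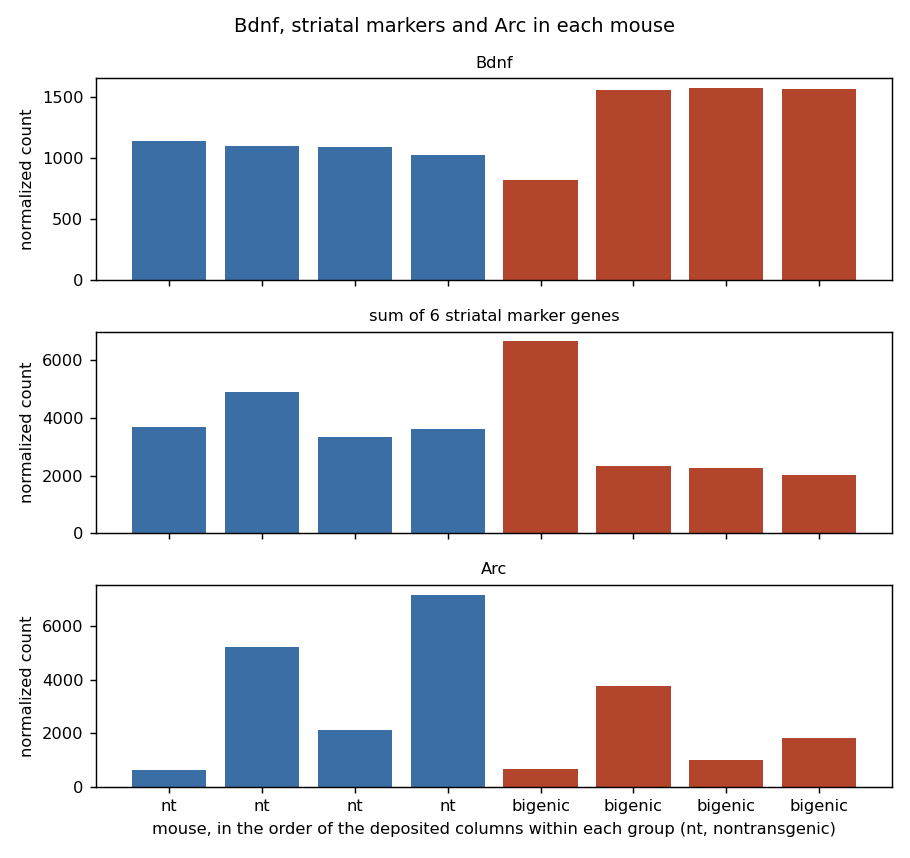
Normalized counts (linear axes from 0) of Bdnf, of the sum of 6 striatal marker genes and of Arc in each mouse, nontransgenic in blue and bigenic in red, in column order. The first bigenic mouse has the lowest Bdnf (822) and the highest striatal sum (6637), while Arc varies from 621 to 7175 among the nontransgenic mice, whose Bdnf stays between 1023 and 1144.

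The pattern of Bdnf over the 8 mice was compared with that of every gene tested, as the root mean square difference of log2(normalized count + 1) after each gene's own nontransgenic mean was subtracted. The nearest genes were Zfp384 (0.122), Hivep1 (0.152) and Zdhhc1 (0.153), and the median over all genes was 0.405. Zfp384 had 213 to 362 normalized counts in the bigenic mice, against 252 to 291 in the nontransgenic mice, so its bigenic values also lay on both sides of the nontransgenic range.

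Neither receptor kinase passed the test. Ntrk2 (uc007quj.1, mm9 chromosome 13, 58907957 to 59235331, plus strand), which encodes TrkB, had 7761, 8303, 8544 and 8979 normalized counts across the bigenic mice, against 7837, 7517, 7851 and 6879 across the nontransgenic mice. The first bigenic mouse lay within the nontransgenic range and the other three above it. The means were 8397 ± 508 and 7521 ± 455 (SD, n = 4), with a log2(fold change) of 0.16 (SE 0.08, 95% interval -0.01 to 0.33) and an adjusted p of 0.125 in limma. With limma's array weights, which give noisier libraries less weight, the adjusted p was 0.00655 at a log2(fold change) of 0.18. The single row does not separate full-length TrkB from its truncated forms, which lack the kinase domain and are abundant in astrocytes. The summed level of 10 astrocyte markers was 125079 to 145138 normalized counts in the bigenic mice, against 152871 to 164432 in the nontransgenic mice, lower without overlap, and 4 of the 10 passed as lower.

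Ntrk3 (uc009hxf.2, mm9 chromosome 7, 85337248 to 85723294, minus strand), which encodes TrkC, had 777, 836, 953 and 971 normalized counts across the bigenic mice, against 958, 976, 1003 and 904 across the nontransgenic mice. The first and second bigenic mice were below the nontransgenic range and the other two within it. The means were 884 ± 93.2 and 960 ± 41.8 (SD, n = 4), and the log2(fold change) of -0.12 (SE 0.09, 95% interval -0.33 to 0.08) did not pass limma's test (adjusted p = 0.307). As a percentage the interval of Ntrk3 ran from -20.2% to 5.52%.

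None of the SorCS receptors passed the test, and Sorcs1 came closest. Sorcs1 (uc008hwa.2, mm9 chromosome 19, 50218430 to 50753102, minus strand) had 1511, 1619, 1491 and 1531 normalized counts in the bigenic mice, against 1379, 1343, 1326 and 1370 in the nontransgenic mice. Every bigenic mouse was above every nontransgenic mouse, and the spread within both groups was small, with means of 1538 ± 56.4 and 1355 ± 24.4 (SD, n = 4). The log2(fold change) of Sorcs1 was 0.18 (SE 0.07, 95% interval 0.04 to 0.33), with an unadjusted p of 0.0195 and an adjusted p of 0.0530 in limma. Sorcs1 passed in 3 of the 15 other settings tried. These were rescaling of all libraries to equal totals (adjusted p = 0.0444), array weights (0.00614) and the fit without the second bigenic mouse (0.0395). Its highest limma adjusted p among the 15 was 0.148, with quantile normalization.

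Sorcs2 (uc008xek.1, mm9 chromosome 5, 36359829 to 36740788, minus strand), a co-receptor for proBDNF, had 954, 941, 782 and 720 normalized counts across the bigenic mice, against 1041, 1046, 989 and 899 across the nontransgenic mice. The first and second bigenic mice lay within the nontransgenic range and the other two below it. The means of Sorcs2 were 849 ± 116 and 994 ± 68.2 (SD, n = 4), with a log2(fold change) of -0.23 (SE 0.11, 95% interval -0.47 to 0.01, limma adjusted p = 0.115). Sorcs2 passed in 2 of the 15 other settings tried. The log2(fold change) was -0.40 with array weights (adjusted p = 0.000181) and -0.29 without the second bigenic mouse (adjusted p = 0.0349). Its highest limma adjusted p among the 15 was 0.271, without the fourth bigenic mouse.

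Sorcs3 (uc008hvx.1, mm9 chromosome 19, 48280515 to 48879995, plus strand) lies 1.34 Mb from Sorcs1 on the same chromosome. It had 1155, 1208, 1607 and 1524 normalized counts in the bigenic mice, against 1755, 1514, 1481 and 1176 in the nontransgenic mice, and the groups overlapped over most of their range. The log2(fold change) of Sorcs3 was -0.11 (SE 0.14, 95% interval -0.43 to 0.21, limma adjusted p = 0.578), and its sign changed with array weights.

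**Figure D3:**
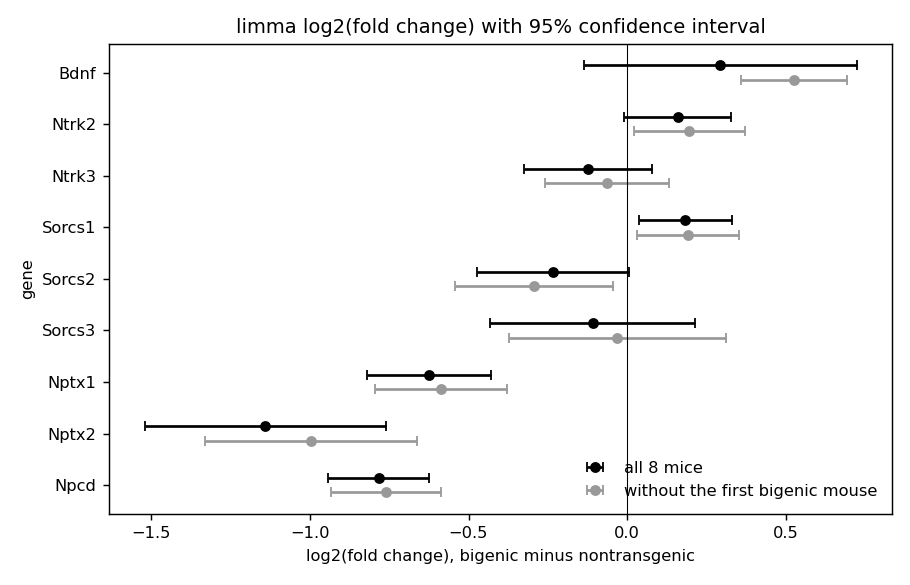
limma log2(fold change), bigenic minus nontransgenic, with its 95% confidence interval for the 8 genes and Npcd, from all 8 mice (black) and without the first bigenic mouse (grey). The intervals of Nptx1, Nptx2 and Npcd lie below 0 in both fits, and that of Bdnf spans 0 with all mice and lies above 0 without the first bigenic mouse.

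The secreted pentraxins fell, and every bigenic mouse was below every nontransgenic mouse for both genes. Nptx2 (uc012egq.1, mm9 chromosome 5, 145306756 to 145318347, plus strand), the activity-regulated pentraxin NARP, had 827, 962, 1308 and 1503 normalized counts across the bigenic mice, against 2716, 2477, 2257 and 2438 across the nontransgenic mice. The highest bigenic mouse was well below the lowest nontransgenic mouse. The means were 1150 ± 311 and 2472 ± 189 (SD, n = 4), and the log2(fold change) of Nptx2 was -1.14 (SE 0.17, 95% interval -1.52 to -0.76, limma adjusted p = 0.000927), so that its geometric mean, with 1 added to each value, fell by 54.6%. From the most negative change upward, Nptx2 stood at rank 89 of 10588 genes. Its coefficient of variation was 27.0% among the bigenic mice and 7.64% among the nontransgenic mice.

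Nptx1 (uc007mqv.1, mm9 chromosome 11, 119400033 to 119409067, minus strand), which encodes NP1, had 4413, 4721, 5213 and 4822 normalized counts in the bigenic mice, against 7273, 6595, 7463 and 8273 in the nontransgenic mice. The bigenic values of Nptx1 lay close together and all below the nontransgenic range. The means were 4792 ± 330.1 and 7401 ± 690 (SD, n = 4), with a log2(fold change) of -0.62 (SE 0.09, 95% interval -0.82 to -0.43, limma adjusted p = 0.000661) and rank 546 from the most negative. Both Nptx1 and Nptx2 passed in all 15 other settings tried, at -0.68 to -0.54 for Nptx1 and -1.28 to -0.85 for Nptx2.

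Nptxr had no row under its symbol, but its locus was counted under another name. Npcd (uc007wum.1, mm9 chromosome 15, 79616783 to 79664667, minus strand), looked up after the tables had been seen, is listed as a neuronal pentraxin with a chromo domain and spans Nptxr and its neighbour Cbx6. In the GENCODE annotation of mm9, 81.5% of the 5168 exonic bases of Nptxr and 18.7% of the 6290 exonic bases of Cbx6 lie in exons of Npcd. Cbx6, a chromodomain protein of Polycomb complexes, had no row either. The counts of the Npcd row cannot be divided among the 3 genes, so the missing Nptxr row does not show that Nptxr was below the read filter.

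Npcd had 13407, 15597, 13536 and 13935 normalized counts across the bigenic mice, against 24525, 23948, 23324 and 25276 across the nontransgenic mice. All bigenic mice were below all nontransgenic mice by a wide margin. The means were 14119 ± 1011 and 24268 ± 832 (SD, n = 4), and the log2(fold change) of Npcd was -0.78 (SE 0.07, 95% interval -0.94 to -0.63, limma adjusted p = 6.22e-05). It passed in all 15 other settings.

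Whether the pentraxin rows fell by the same factor was asked with ratios within each mouse, a comparison chosen after the values were seen. The log2 ratio of Nptx2 to Nptx1 was -2.10 ± 0.33 in bigenic and -1.58 ± 0.19 in nontransgenic mice (SD, n = 4), a difference of -0.52 (exact two-sided permutation test over 70 arrangements, p = 0.0857, adjusted p = 0.171 over 3 pairs). The ratio of Nptx2 to Npcd differed by -0.36 (exact permutation p = 0.229, adjusted p = 0.229) and that of Nptx1 to Npcd by 0.16 (exact permutation p = 0.114, adjusted p = 0.171). The smallest p these 8 mice can give is 0.0286, and a difference in the size of the fall was not resolved for any of the 3 pairs.

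Excitatory neuron markers moved with the pentraxins. The summed level of the 6 markers was 42103 to 61495 normalized counts in the bigenic mice, against 70141 to 77361 in the nontransgenic mice, with 2 lower, 1 higher and 3 not passing. Camk2a, the gene whose promoter drives tTA, fell by 0.88 on the log2 scale (limma adjusted p = 0.000176). The 6 markers of all neurons summed to 98741 to 132662 against 119231 to 135762, which overlapped, with 3 lower, 1 higher and 2 not passing. Of these, Syt1 and Snap25, both of the synaptic vesicle release machinery, fell by 0.44 (adjusted p = 0.00581) and by 0.38 (adjusted p = 0.0231). The higher one was Rbfox3, the neuronal splicing factor NeuN, named after its values were seen, which rose by 0.30 (adjusted p = 0.0290). The 6 markers of inhibitory neurons summed to 15136 to 15723 against 16917 to 18678, without overlap, with 2 lower, 0 higher and 4 not passing. Of the inhibitory markers Sst, a neuropeptide, fell by 0.46 (adjusted p = 0.00277) and Gad1, a GABA-synthesizing enzyme, by 0.19 (adjusted p = 0.0453). The calls of Gad1 and Snap25 each held in 2 of the 8 fits that left out 1 mouse, and that of Rbfox3 in 5. No marker of the 3 lists was at 0 in any mouse, and their part in the fall of Nptx1 and Nptx2 was not tested.

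The pattern of Nptx2 over the 8 mice was nearest to those of Col12a1 (root mean square difference 0.161), Fkbp1a (0.174) and Fdft1 (0.179), against a median of 0.878 over all genes. Fkbp1a had 2190 to 2856 normalized counts across the bigenic mice, against 4760 to 5447 across the nontransgenic mice.

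The pentraxins act on AMPA receptors, and 9 of 12 listed partner genes had values. Of these, 4 were lower (44.4%), 0 higher and 5 did not pass, with a median log2(fold change) of -0.24. Over all genes tested 35.9% passed, 15.4% as lower, and the median was 0.03. Among the AMPA receptor subunits, Gria3 had 4326, 3962, 4583 and 4298 normalized counts in the bigenic mice, against 8991, 8331, 8884 and 8099 in the nontransgenic mice, far apart in every mouse. Its log2(fold change) was -1.0 (SE 0.07, limma adjusted p = 2.46e-05). Gria1 fell by 0.27 (SE 0.08, adjusted p = 0.0183). Gria2 had a log2(fold change) of -0.10 (SE 0.07, adjusted p = 0.305) and Gria4 of 0.01 (SE 0.08, adjusted p = 0.926), both named after their values were seen. On the same strand, exons of other annotated genes overlap those of Gria2, Gria3 and Gria4.

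Outside the receptor subunits, Rcn2, a calcium-binding protein of the endoplasmic reticulum, fell by 0.24 (adjusted p = 0.0427), and C1qa, a complement component made by microglia, fell by 0.42 (adjusted p = 0.0382). C1qb and C1qc of the same list, named after their values were seen, did not pass, and C1qb changed sign in 1 of 15 other settings. Of the 8 microglia markers with values 5 were lower, and their sum was 5487 to 7018 against 7496 to 8597 normalized counts. The strongest were Cx3cr1, at 825 ± 37.8 against 1222 ± 131 (adjusted p = 0.00156), and P2ry12, at 630 ± 59.8 against 996 ± 131 (adjusted p = 0.00206; SD, n = 4). Of the 4 partner calls, that of Gria3 held in all 8 fits that left out 1 mouse, and those of Gria1, C1qa and Rcn2 did not.

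Genes of neurotrophin signalling around the 8 genes went in both directions. Of 81 listed genes 73 had values, 12 were higher, 13 lower and 48 did not pass. The 34.2% that passed compare with 35.9% of all genes tested, and the median log2(fold change) was 0.05 against 0.03. Of the 25 calls, 15 held in all 8 fits that left out 1 mouse. Of the genes named here, Sort1, Kidins220 and Vgf lost the call in at least 1 of those fits, and none of the 25 changed sign in any setting.

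**Figure D4:**
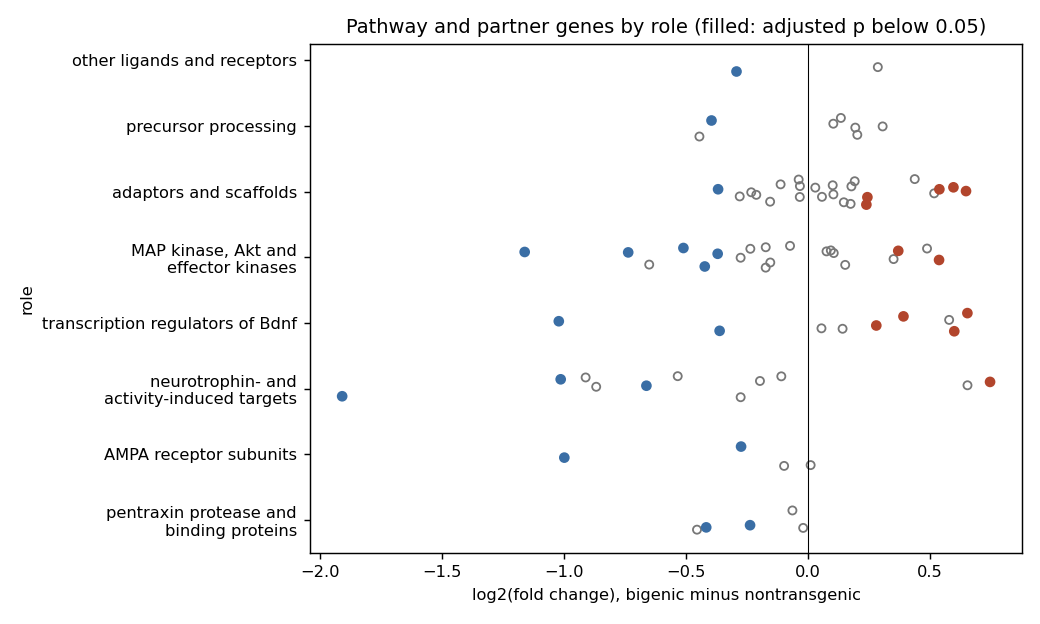
limma log2(fold change), bigenic minus nontransgenic, of 73 neurotrophin pathway genes and 9 pentraxin partner genes, 1 point per gene, ordered by role, with genes of adjusted p below 0.05 filled in red (higher) or blue (lower). Most adaptors that passed lie above 0, while Camk4 (-1.16) and Gria3 (-1.0) lie far below it, as do Egr3 and Npas4. Egr2 lies lower still, and its call held in 2 of the 8 fits that left out 1 mouse.

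Ngfr, which encodes the neurotrophin receptor p75, had no row. Sort1, the Vps10p-domain receptor sortilin that carries proBDNF to the regulated secretory pathway, had 10975 ± 890 normalized counts across the bigenic mice, against 13457 ± 695 across the nontransgenic mice (SD, n = 4), a log2(fold change) of -0.30 (adjusted p = 0.0159 in limma). Cpe, carboxypeptidase E, which acts as a sorting receptor for the BDNF precursor, fell by 0.40 (adjusted p = 0.00298). It was the gene of the 7 for precursor processing that passed (14.3%, against 35.9% of all genes tested).

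Among 24 adaptors and scaffolds 5 were higher and 1 lower. The 25.0% that passed compare with 35.9% of all genes tested, of which 20.5% were higher and 15.4% lower. Frs2, which links activated Trk receptors to the MAP kinase pathway, had 2773, 2174, 2948 and 2777 normalized counts in the bigenic mice, against 1686, 1702, 1694 and 1689 in the nontransgenic mice. Every bigenic mouse was higher, and the log2(fold change) of Frs2 was 0.65 (SE 0.10, limma adjusted p = 0.000938). Traf6, a ubiquitin ligase recruited by the neurotrophin receptor p75, rose by 0.60 (adjusted p = 0.000656), Irs1 by 0.54 (adjusted p = 0.0102) and Kidins220, a scaffold for Trk receptors, by 0.24 (adjusted p = 0.0229).

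Of 20 kinases and small GTPases 5 were lower and 2 higher (35.0% passed, against 35.9% of all genes tested). Camk4, the nuclear calcium/calmodulin-dependent kinase that phosphorylates CREB, had 5111, 4508, 5639 and 5245 normalized counts across the bigenic mice, against 11140, 11085, 12514 and 11044 across the nontransgenic mice. The groups were far apart, with a log2(fold change) of -1.16 (SE 0.08, limma adjusted p = 2.46e-05). Akt1, a kinase downstream of phosphoinositide 3-kinase, rose by 0.54 (adjusted p = 0.00264). Exons of Camk4 overlap a gene on the opposite strand, as do those of Sort1, Irs1, Mef2d, Egr1 and Tardbp. Whether the counting used strand is not given in the sources used here.

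Of 9 transcription regulators of Bdnf 4 were higher and 2 lower (66.7% passed, against 35.9% of all genes tested). Crtc1, a CREB coactivator, had 4698 ± 442 normalized counts in the bigenic mice, against 2982 ± 149 in the nontransgenic mice (SD, n = 4), a log2(fold change) of 0.65 (adjusted p = 0.00041 in limma). Npas4, an activity-induced factor that binds Bdnf promoters, had 211, 443, 348 and 305 normalized counts across the bigenic mice, against 549, 690, 641 and 699 across the nontransgenic mice, lower in every bigenic mouse and lowest in the first (log2(fold change) -1.02, SE 0.20, adjusted p = 0.00342). Mef2c fell by 0.36 (adjusted p = 0.00749) and its paralog Mef2d rose by 0.60 (adjusted p = 0.00791).

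Of 11 genes induced by neurotrophins or activity 1 was higher and 3 lower (36.4% passed, against 35.9% of all genes tested). Vgf, a neuropeptide precursor induced by BDNF, had 4117, 9968, 6234 and 6831 normalized counts in the bigenic mice, against 3985, 3686, 3511 and 4292 in the nontransgenic mice. As for Bdnf, the first bigenic mouse was the lowest of its group and the other three lay above the nontransgenic range. The log2(fold change) of Vgf was 0.75 (SE 0.22, limma adjusted p = 0.0236). Homer1, a postsynaptic scaffold with an activity-induced short form, fell by 0.66 (adjusted p = 0.00581) and Egr3, an activity-induced transcription factor, by 1.01 (adjusted p = 0.00632), both without overlap of the groups.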

How the data were processed

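Per the labels and the study's methods, the authors trimmed reads with cutadapt, mapped them to mm9 with Bowtie 0.12.7, counted uniquely mapping reads on exons with bedtools and tested them with DESeq2. The deposited table holds a signal for 28662 transcripts in 8 mice, as normalized counts that are not raw reads; how they were scaled is not given in the sources used here. A second table gave the symbols. Its fold changes and p-values, the authors' own comparison, were not used.

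Genes that reached 10 RPM, relative to the column totals, in at least 1 mouse were tested as log2(value + 1) with limma 3.58.1 (R 4.3.3, eBayes with a trend), with the Benjamini-Hochberg adjustment over 10588 genes and a threshold of 0.05. Fold changes on this scale understate the change of low genes. The scripts were tested on simulated data. Per-mouse ratios were compared with exact permutation tests. The limma p-values weigh the difference between the groups against the spread among mice within them. The permutation p-values compare that difference with rearrangements of these mice.

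The genes and lists were chosen with earlier results of these data known. Named were every member, genes of the pathway and partner lists past the threshold (at least the smallest adjusted p per role), the 2 strongest genes of marker lists that moved, the 3 nearest patterns of Bdnf and Nptx2, Tardbp and the largest rise. Positions are from GENCODE on mm9. Alternatives were pseudocounts of 10 and 0.1, no filter or a filter in every mouse, rescaling, quantile normalization, array weights and leaving out each mouse. Protein sequences were not used here, and some genes that the rule would name are not reported here.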

Additional observations from a re-analysis of the deposited data

Results flagged for a closer look

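In each group of 4 mice, the lowest or highest value was examined for a gap to its nearest neighbour that took up most of the group's range, for 32 genes and 64 groups. Chance gives such a gap in about 1 in 20 groups, and 2 were found. Bdnf was at 822 normalized counts in the lowest bigenic mouse, with a gap of 0.974 of the range. Camk4 was at 12514 normalized counts in the highest nontransgenic mouse.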

How the results depend on the processing

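No paired analysis was possible because the columns of the table carry no replicate number of the labels. Changing the pseudocount, the filter, the scaling or the weights of the libraries, or leaving out 1 mouse, reversed the direction of Sorcs3 with array weights (0.012, adjusted p = 0.911 in limma) and of no other of the 8 genes, Npcd or Tardbp. The pentraxin ratios, recomputed with the other pseudocounts and without each mouse, did not change sign. Nptx1, Nptx2 and Npcd passed under all 15 alternatives. The adjusted p of Bdnf ranged from 0.00144 to 0.453 and passed in 2, with array weights (log2(fold change) 0.45, adjusted p = 0.00204) and without the first bigenic mouse.

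With array weights, 6455 genes passed instead of 3796, 6 of the 8 members instead of 2 (3 higher, 3 lower) and 44 pathway genes instead of 25; the cause was not tested. Without 1 mouse, between 2654 and 4782 genes, 2 and 4 members, 16 and 37 pathway genes and 1 and 5 partner genes passed. The 4 members came without the second bigenic mouse, the library with the fewest estimated reads (10.6 M) and the lowest array weight (0.0843). The 16 pathway genes came without the second or the third nontransgenic mouse. Of the partners, 1 passed without the third or the fourth bigenic mouse or the first or second nontransgenic mouse, and 2 without the third or the fourth nontransgenic mouse. Without a filter and with rescaling, 2 partners passed instead of 4. The estimated 10.6 to 31.9 M reads per mouse limit genes with few reads more than the 8 members.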

Other observations

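Choroid plexus markers, which belong to no comparison above, were higher in every bigenic mouse: the 5 with values summed to 8559 to 19772 normalized counts against 410 to 1281 in the nontransgenic mice, and all 5 passed. F5 was at 201 ± 35.7 against 30.0 ± 6.68 normalized counts (limma adjusted p = 5.08e-05; SD, n = 4) and Kl, a gene strongly expressed in choroid plexus epithelium, at 355 ± 75.4 against 74.5 ± 18.8 (adjusted p = 7.87e-05). Of 2 thalamic markers with values both were lower, Slc17a6 at 334 ± 51.7 against 812 ± 81.9 (adjusted p = 8.87e-05) and Prkcd at 174 ± 25.3 against 234 ± 20.8 (adjusted p = 0.0331), whose call held in 3 of the 8 fits that left out 1 mouse. Among astrocyte markers Gja1 fell by 0.43 on the log2 scale (adjusted p = 0.00525) and Aqp4 by 0.63 (adjusted p = 0.00698). Of 10 oligodendrocyte markers 1 was higher, and of 6 endothelial markers 1 was lower. The part of these cell types in the values of the neurotrophin and pentraxin genes was not tested.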
